A study of Mus musculus with 12 samples.

Results

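The motile cilia genes of mouse striatal tissue were described, as a set taken by symbol. Most of them encode dyneins, radial spokes, the central pair and other axonemal parts that ependymal cells use to move cerebrospinal fluid. Others are transcription factors or have no role assigned here. Members were the genes of the count table whose symbol began with Dnah, Dnai, Cfap, Rsph or Drc followed by a number, together with Foxj1, Rfx3, Tekt1 and Hydin. They also had to reach a CPM (counts per 1e6 counts of the library) of at least 0.25 in at least 3 of the 12 libraries. By symbol 83 genes qualified, and 75 of them reached that level, out of 16174 features tested and 57132 features counted. No row carried the symbol Pifo.

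Striatal RNA of 10-month-old C57Bl/6 mice was compared between TAAR5-KO animals, which carry a knockout of trace amine-associated receptor 5, and their wild-type littermates (TAAR5-WT), with no treatment in either group. The tissue was what remained of a coronal slice from AP 2 mm to Bregma after the cortex had been taken away, so the ventricular wall and the choroid plexus were not dissected off as a stated step. There were 6 libraries per label, NK1 to NK6 labelled TAAR5-KO and NK7 to NK12 labelled TAAR5-WT. Males and females were both used, and the sex of each library was not read from its counts. No label ties a library to one animal or to its sex. The p-values therefore measure the spread between these libraries.

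A motile cilium is built on an axoneme, a ring of doublet microtubules around a central pair. Outer and inner dynein arms slide neighbouring doublets past each other, while radial spokes, the central pair and the nexin-dynein regulatory complex shape the beat. In the brain the cells with tufts of such cilia are the ependymal cells of the ventricles, and choroid plexus epithelium bears cilia as well. Foxj1, a forkhead factor, drives the programme of motile ciliogenesis together with factors of the RFX family such as Rfx3, which also serve primary cilia.

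Sequences of 250 bases before a transcription start were available for 50 of the 75 members and are shown for 4 of them because they share the core of an RFX site, written GTTGCCAT on the coding strand or as its reverse complement. That motif was found in the promoters of 5 of the 50 members (10.0%) and of 416 of 27025 genes (1.54%), with windows that ran from 250 bases before to 50 bases after the start. The forkhead motif GTAAACA was found, on either strand, for 3 members (6.00%), namely Cfap20, Cfap43 and Dnah17, and for 4.05% of all genes. The fifth member with an RFX match was Cfap97d2. A match is a run of letters and not a measured binding site. The sequences are those of RefSeq on GRCm38.p6, an earlier build than the GRCm39 of the counts, and capitals mark the RFX match.
Cfap44, a tether of the inner dynein arms, plus strand, chr16:44394549-44394798, match starting 21 bases before the start site
Cfap44: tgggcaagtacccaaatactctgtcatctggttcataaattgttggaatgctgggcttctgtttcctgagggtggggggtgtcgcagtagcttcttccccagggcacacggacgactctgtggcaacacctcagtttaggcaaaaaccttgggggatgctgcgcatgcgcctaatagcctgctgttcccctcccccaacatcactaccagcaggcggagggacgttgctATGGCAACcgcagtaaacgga
Cfap161, a protein inside the doublet microtubules, minus strand, chr7:83794840-83795089, match starting 41 bases before the start site
Cfap161: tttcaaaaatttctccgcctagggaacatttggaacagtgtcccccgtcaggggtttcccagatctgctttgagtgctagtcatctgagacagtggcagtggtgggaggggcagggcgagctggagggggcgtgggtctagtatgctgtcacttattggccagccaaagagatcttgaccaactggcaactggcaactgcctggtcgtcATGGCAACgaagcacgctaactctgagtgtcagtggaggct
Tekt1, a tektin filament of the doublets, minus strand, chr11:72361883-72362132, match starting 15 bases before the start site
Tekt1: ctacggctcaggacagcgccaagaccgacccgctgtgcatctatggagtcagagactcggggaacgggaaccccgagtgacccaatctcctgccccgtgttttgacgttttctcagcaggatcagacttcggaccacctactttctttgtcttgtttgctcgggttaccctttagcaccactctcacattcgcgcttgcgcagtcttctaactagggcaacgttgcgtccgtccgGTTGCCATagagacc
Cfap74, a part of the central pair apparatus, plus strand, chr4:155408990-155409239, match starting 37 bases before the start site
Cfap74: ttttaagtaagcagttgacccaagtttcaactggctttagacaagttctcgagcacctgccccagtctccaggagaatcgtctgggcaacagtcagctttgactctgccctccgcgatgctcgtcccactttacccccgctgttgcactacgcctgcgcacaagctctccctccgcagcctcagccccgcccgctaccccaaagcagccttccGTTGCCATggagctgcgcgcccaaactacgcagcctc

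Total counts ran from 11269915 to 34824450 per library, of which 64.3% to 88.1% lay on ribosomal RNA. The 75 members together received between 992 and 4775 counts per library, and levels below are CPM on TMM-scaled library sizes (trimmed mean of M-values). Taar5 itself had 1 to 6 counts in every library labelled TAAR5-KO and 0 to 2 in those labelled TAAR5-WT. That is the reverse of a loss of the transcript under the knockout label, on too few counts to weigh. The cause was not tested, and groups are named by label throughout. In bulk tissue, fewer ciliated cells and less RNA per cell cannot be told apart.

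The members were low on the TMM scale, whose library sizes include ribosomal RNA, so these levels do not describe the tissue alone. With CPM taken over counts outside ribosomal RNA, the members summed to 258.4 in NK1 and 1082 in NK4. On the TMM scale these sums were 91.2 and 170.4 CPM. On that scale, the mean level of the members per kb of merged exon ran from 0.0138 to 4.20 CPM per kb with a median of 0.159. A mean below 1 CPM was found for 36 of 75. The highest levels per kb belonged to Cfap36 (4.20 CPM per kb) and Rfx3 (1.43), followed by Cfap97, Cfap418 and Cfap68 (1.21 to 1.28). Of these, Cfap36, Cfap97 and Cfap418 have no role assigned here and Rfx3 is a transcription factor. Cfap68 lies inside the doublets, and of the other parts of the axoneme Rsph1 and Rsph4a of the radial spoke head reached 0.853 and 0.694 CPM per kb. The lowest were Dnah8 (0.0138) and Dnah17 (0.0157), the outer arm heavy chains known from the sperm tail. Defining ependymal markers outside the rule were low on the TMM scale as well. Ccdc153 stood at 0.300 to 1.72 CPM, Rarres2 at 0.152 to 1.07 CPM and Tmem212 at 0 to 0.463 CPM across the 12 libraries.

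Only Cfap251 differed between the labels past an adjusted p of 0.1, in the higher direction, by the likelihood ratio test of edgeR across all features. That is 1 of 75 members, beside 1.49% of all features tested in either direction and 0.878% in that direction. By the quasi-likelihood test of edgeR no member passed, beside 0.315% of all features, although 6 members had an unadjusted p under 0.05. By the likelihood ratio test 7 members (9.33%) had an unadjusted p under 0.05, 3 higher and 4 lower, beside 11.4% of all features. No member had groups that did not overlap, beside 0.952% of all features. The median log2 fold change, labelled TAAR5-KO minus labelled TAAR5-WT, was 0.11 over the members and -0.0087 over all features tested. On the positive side were 53 members and on the negative side 22, beside 48.4% of all features on the positive side. The median of the members was -0.038 without NK4 and -0.000365 without NK5. Their mean log2 CPM differed by -0.074 in the same direction of subtraction. The sum of the members per library had a median of 116.2 CPM under the knockout label and 117.7 CPM under the other.

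**Figure D1:**
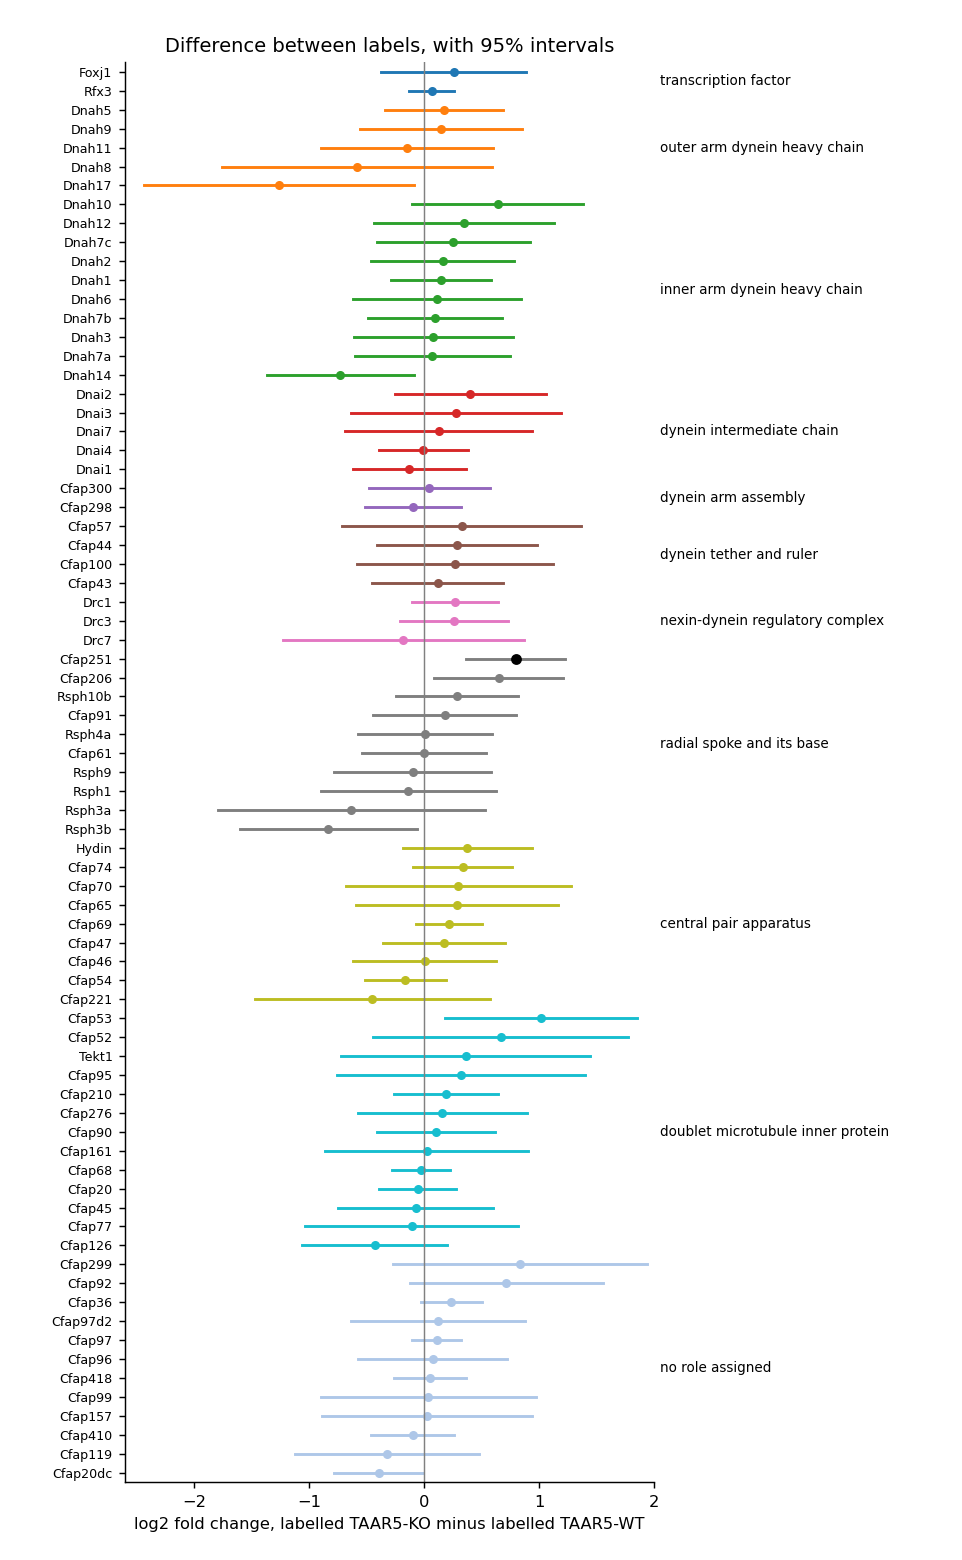
Log2 fold change of each of the 75 members between labels (x axis, labelled TAAR5-KO minus labelled TAAR5-WT) with its 95% interval of the edgeR fit, grouped by role along the y axis. The black point is Cfap251, the only member past an adjusted p of 0.1, and the intervals of most other members reach across 0.

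Cfap251 (ENSMUSG00000029442.20, chromosome 5 of GRCm39 from 123390165 to 123465547, plus strand) encodes a protein at the base of a radial spoke. Its level was 1.29, 1.48, 1.05, 1.18, 2.02 and 1.63 CPM from NK1 to NK6. The libraries labelled TAAR5-WT stood at 0.689, 0.798, 1.41, 0.955, 0.695 and 0.922 CPM from NK7 to NK12. All libraries labelled TAAR5-KO lay above 5 of the 6 labelled TAAR5-WT, and the groups overlapped through NK9. The means were 1.44 ± 0.352 and 0.911 ± 0.267 CPM (SD, n = 6 per label). On the log2 scale the difference was 0.79 (SE 0.22), with an adjusted p of 0.0414 in edgeR and 0.157 by its quasi-likelihood test. The call rested on 8 to 62 counts per library and was lost without NK5, NK6, NK7 or NK11 in turn, with adjusted p of 0.109 to 0.167. A feature on the opposite strand, Gm15857, shares 131 bases (1.46%) of its exons, and the strand setting of the counting is not named.

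Neither transcription factor passed the test, and they were unlike in their spread. Foxj1 (chromosome 11 from 116221530 to 116226225, minus strand) had 0.758, 1.01, 1.37, 4.90, 3.03 and 2.68 CPM from NK1 to NK6. Under the other label it lay at 1.67, 1.97, 1.84, 1.79, 2.60 and 1.82 CPM from NK7 to NK12. The libraries labelled TAAR5-KO thus fell on both sides of those labelled TAAR5-WT, with 3 below the lowest and 3 above the highest of them. The log2 fold change was 0.26 with a 95% interval from -0.37 to 0.88 (adjusted p 0.823). Rfx3 (chromosome 19 from 27739121 to 27988566, minus strand) stayed within 12.7 to 17.9 CPM over all 12 libraries, a range of 1.42-fold. Its log2 fold change was 0.066 with an interval from -0.13 to 0.26 (adjusted p 0.867), so a change of 1.5-fold in either direction lies outside that interval. For Foxj1 an increase of 1.5-fold lies inside the interval and a decrease of 1.5-fold outside it.

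Of the outer arm heavy chains, Dnah5 (0.138 CPM per kb) and Dnah9 (0.125), which form the motor pair of this arm in ciliated epithelia, were the most abundant. Dnah5 ran from 1.01 to 3.12 CPM with a median of 2.56 in the libraries labelled TAAR5-KO and from 1.31 to 2.98 CPM with a median of 1.91 in the others. Dnah9 ran from 0.455 in NK1 to 4.40 in NK4, beside 0.991 to 2.77 CPM under the wild-type label. The groups overlapped for both, with log2 fold changes of 0.17 and 0.15 (adjusted p 0.868 and 0.927). Dnah17 had the most negative log2 fold change of all members, -1.26 (SE 0.60, adjusted p 0.362), on 0 to 11 counts per library.

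The inner arm heavy chains were represented by 10 members, of which 9 had positive and 1 a negative log2 fold change, and none passed the test. Dnah6 (0.213 CPM per kb), a single-headed inner arm chain, had 0.530, 0.935, 1.85, 6.26, 4.50 and 3.36 CPM from NK1 to NK6. In the libraries labelled TAAR5-WT it kept between 2.21 and 3.57 CPM with a median of 2.56. The range under the knockout label enclosed the other group on both sides, and the log2 fold change was 0.11 (interval -0.62 to 0.84). Dnah12 had the same shape, from 0.468 in NK2 to 4.77 CPM in NK4. Dnah14 was the exception in sign, at 0.124 to 0.499 CPM against 0.362 to 0.716 CPM, and differed by -0.73 ± 0.33 on the log2 scale (SE), with an adjusted p of 0.320. Dnah7a, Dnah7b and Dnah7c are near-identical copies with 96.8% to 97.3% identity along their transcripts, so how reads were divided among them is uncertain, and their log2 fold changes were 0.072, 0.094 and 0.26.

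Intermediate chains, which dock and regulate the motors, did not pass the test for any of the 5 members. Dnai4 (0.475 CPM per kb) had 2.26 to 4.84 CPM with a median of 3.42 and, under the other label, 2.47 to 5.04 CPM with a median of 3.15. Its groups lay over each other, with a log2 fold change of -0.0059 and an interval from -0.39 to 0.38. Dnai1 and Dnai2 of the outer arm had log2 fold changes of -0.13 and 0.40 (adjusted p 0.904 and 0.688). The cytoplasmic assembly factors Cfap300 and Cfap298 were close to even, at 0.046 and -0.097 on the log2 scale. Cfap300 had 0.606 to 1.30 CPM with a median of 1.08, beside 0.630 to 1.62 CPM with a median of 0.856, and the groups overlapped. Cfap298 shares 44.2% of its exonic bases with Gm49727 on the opposite strand.

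The members grouped here as tethers and rulers of dyneins, Cfap43, Cfap44, Cfap57 and Cfap100, all had positive log2 fold changes of 0.12 to 0.33, with none past the test. The median was nonetheless lower under the knockout label for Cfap57 (0.314 beside 0.360 CPM) and Cfap100 (0.351 beside 0.433 CPM). It was higher for Cfap43 and Cfap44. Cfap44 (0.240 CPM per kb) ran from 0.606 in NK1 to 4.21 in NK5 with a median of 1.82 CPM, and from 0.853 to 2.69 CPM with a median of 1.79 under the wild-type label. In the nexin-dynein regulatory complex, Drc7 (0.460 CPM per kb) had 0.303, 0.312, 0.645, 4.34, 1.22 and 0.840 CPM from NK1 to NK6. Its other group ran from 0.277 in NK12 to 2.52 in NK8 with a median of 1.70 CPM. NK4 was the only library over 2.52 CPM, and the ratio of the highest to the lowest library, 15.7-fold, was the widest of the members with more than 3 counts in every library. Drc1 of the same complex kept to 0.973 to 1.67 CPM in all libraries (log2 fold change 0.27, adjusted p 0.619).

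The radial spoke and its base held 3 of the 7 members with an unadjusted p under 0.05, namely Cfap251 and Cfap206 on the positive and Rsph3b on the negative side. That is 3 of its 10 members tested (30.0%), beside 11.4% of all features. For Rsph3b, with 0 to 16 counts per library, the unadjusted p was 0.0772 by the quasi-likelihood test. Cfap206, at the base of the spoke, differed by 0.65 ± 0.29 on the log2 scale (SE), with an adjusted p of 0.325. Rsph1 (0.853 CPM per kb), of the spoke head, had 0.227, 0.390, 0.403, 1.80, 2.19 and 1.47 CPM from NK1 to NK6. The libraries labelled TAAR5-WT stayed between 0.942 and 1.73 CPM with a median of 1.18. Again 3 libraries labelled TAAR5-KO lay below all of these, while NK4 and NK5 lay above and NK6 among them, and the log2 fold change was -0.14 (interval -0.90 to 0.62). Rsph4a, its partner in the spoke head, stood at 0.0092 (interval -0.57 to 0.59). Rsph3a and Rsph3b share 99.4% identity over 1823 bases, so their negative log2 fold changes of -0.63 and -0.83 are uncertain, and neither passed the test.

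Hydin (chromosome 8 from 110993609 to 111336885, plus strand), whose loss causes hydrocephalus in mice, is a giant protein of the central pair. It had 1.14, 1.40, 1.69, 4.40, 3.58 and 2.89 CPM from NK1 to NK6, and between 1.29 and 2.71 CPM with a median of 2.15 under the wild-type label. NK4, NK5 and NK6 exceeded every other library, NK1 was the lowest of all, and the labels differed by 0.38 ± 0.29 on the log2 scale (SE), with an adjusted p of 0.652. The most abundant central pair member per kb was Cfap69 (0.404 CPM per kb), with 2.66 to 4.04 CPM and a median of 3.22 beside 2.50 to 3.70 CPM and a median of 3.06. Its groups overlapped almost wholly (log2 fold change 0.22, adjusted p 0.595). Cfap54 and Cfap74, of the same apparatus, had log2 fold changes of -0.16 and 0.34 (adjusted p 0.786 and 0.584).

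Proteins on the inside of the doublets gave 13 members, 8 positive and 5 negative, with none past the test. Cfap68 (1.21 CPM per kb) had 5.08 to 8.16 CPM with a median of 5.79, and 6.03 to 7.19 CPM with a median of 6.30 in the other group, which lay inside the first. Cfap53 had the largest positive log2 fold change of all members, 1.02 (SE 0.42, adjusted p 0.277), at 0.152 to 0.806 CPM against 0.115 to 0.336 CPM. Tekt1 (chromosome 11 from 72235548 to 72253268, minus strand), one of the genes whose promoter is printed above, had 0 counts in NK1 and at most 1.09 CPM, in NK5, beside 0.108 to 0.630 CPM under the wild-type label. Its log2 fold change was 0.36 with an interval from -0.72 to 1.44, too wide at this depth to show an increase of 2-fold or its absence. A decrease of 2-fold lies outside that interval. Cfap90 was at 0.099 on the log2 scale (adjusted p 0.934). Its transcript matches that of Adcy2 at 100% identity over 1406 bases, while their exons do not overlap in the annotation of the counts. Whether this is a separate copy or the same stretch of the genome was not tested, so its read assignment is uncertain. The remaining 12 members have no role assigned here, and of these Cfap299 had the second largest positive log2 fold change, 0.83 (SE 0.56, adjusted p 0.577), on 0 to 8 counts per library.

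**Figure D2:**
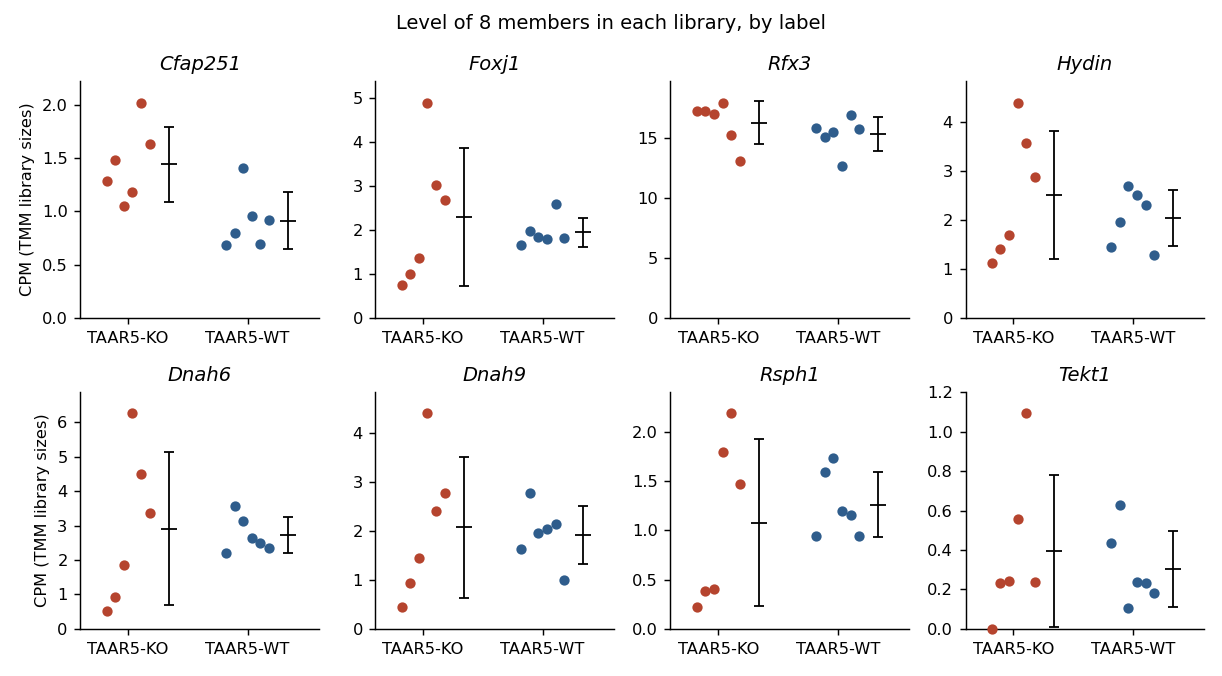
CPM on TMM library sizes (y axis) of 8 members in the 6 libraries of each label, in library order from left to right within a label, with the mean and SD beside them. Cfap251 overlaps only through NK9, whereas Foxj1, Hydin, Dnah6, Dnah9 and Rsph1 run from below to above most of the libraries labelled TAAR5-WT and Rfx3 keeps to 12.7 to 17.9 CPM.

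The members differed more from library to library than between labels. Their median biological coefficient of variation was 0.27, beside 0.13 over all features tested. For features with like total counts (97 to 426 over 12 libraries), it was 0.25 over 37 members and 0.16 over 4581 features. Where every library had more than 3 counts, the highest library exceeded the lowest by a median of 3.19-fold over 42 members and 1.79-fold over 11357 features, and by over 3-fold for 23 members (54.8%) and 11.4% of features. At the narrow end stood Rfx3 (1.42-fold), Cfap97, Cfap68 and Cfap69 (1.55-fold to 1.61-fold), and at the wide end Dnah12 (10.2-fold), Cfap65 (10.8-fold), Dnah6 (11.8-fold) and Drc7 (15.7-fold).

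The same few libraries stood at the ends for many members. NK4 was the highest library for 30 of the 75 (40.0%), beside 10.4% of all features. NK9, labelled TAAR5-WT, followed with 14 (18.7% beside 11.5%) and NK5 with 12 (16.0% beside 5.39%). The lowest library was NK1 for 27 members (36.0% beside 14.1%) and NK2 for 19 (25.3% beside 11.6%). Both libraries most often lowest and the library most often highest thus carried the knockout label, while the next highest carried the wild-type label. On a scale of counts outside ribosomal RNA, NK4 was the highest library for 32 members (42.7% beside 14.1%), and NK1 was the lowest for 55 (73.3%), beside 59.6% of all features.

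**Figure D3:**
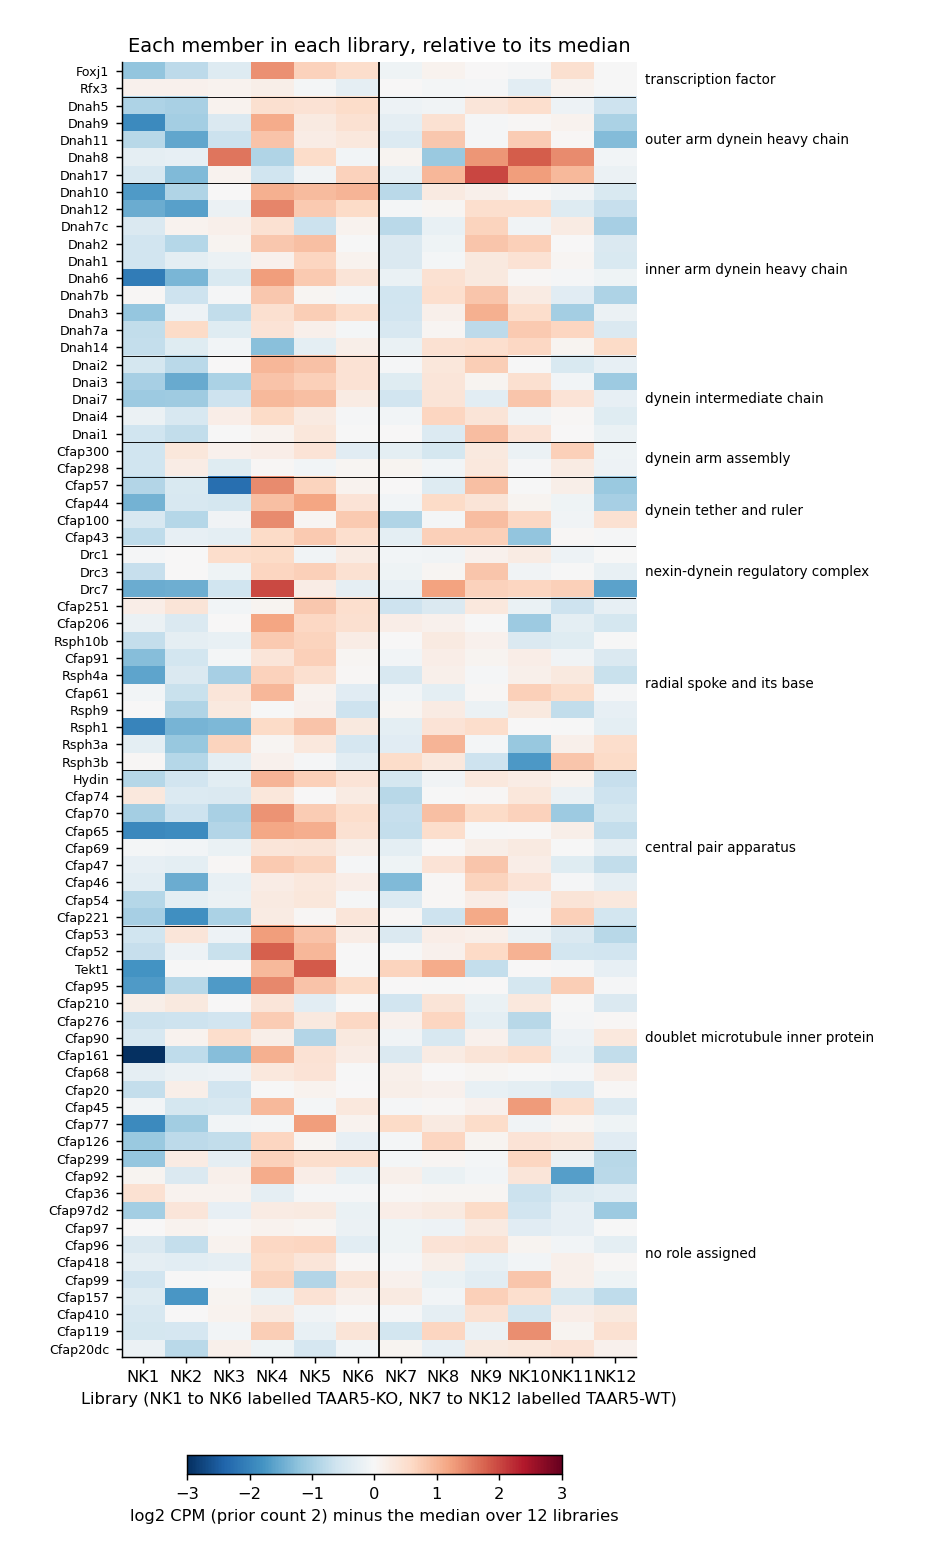
Each of the 75 members (rows, grouped by role) in each of the 12 libraries (columns), as log2 CPM with a prior count of 2 minus the median of that member over the 12 libraries (red above, blue below). NK4 and NK5 are red and NK1 and NK2 blue across most axonemal roles, while Rfx3, Cfap97 and Cfap68 are pale in every library.

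Summed over the 75 members, the level was 91.2, 96.3, 107.0, 170.4, 148.6 and 125.3 CPM from NK1 to NK6, and it ran from 99.96 in NK12 to 138.5 in NK9 under the wild-type label. The means were 123.1 ± 31.2 and 117.8 ± 14.4 CPM (SD, n = 6 per label), a difference well below the spread within either label. The 61 members with an axonemal or dynein assembly role carried most of this spread, from 44.1 CPM in NK1 to 119.7 CPM in NK4. The 12 members with no role assigned summed to 21.2 to 29.3 CPM in all libraries. Every axonemal role had its highest sum in NK4, apart from dynein arm assembly, which peaked in NK11. On the scale of counts outside ribosomal RNA, with CPM taken over those alone, the sum of all members ran from 258.4 in NK1 to 1082 in NK4. That is a range of 4.19-fold, beside 1.87-fold on the TMM scale. On the former scale NK1 was the lowest library for 59.6% of all features as well, so its low sum there is not particular to the members.

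Genes outside the rule that serve the same cilia were also highest in NK4 and NK5 when summed. The list of further axonemal and dynein assembly genes had 56 of 70 genes tested, of which none passed the test, 2 had an unadjusted p under 0.05 and 36 were positive. It summed to 69.9, 71.8, 69.6, 101.5, 92.3 and 88.1 CPM from NK1 to NK6, beside 67.6 to 90.4 CPM. Its smallest p-values belonged to Dnaaf8, a dynein assembly factor (log2 fold change 0.75, adjusted p 0.378), and Lrguk (0.37, adjusted p 0.402). Ependymal marker genes outside the rule gave 23 of 30 tested, none past the test, 14 positive and 9 negative, with sums of 13.9 CPM in NK3 to 31.4 CPM in NK4 and of 13.3 to 25.2 CPM under the wild-type label. Riiad1 and Tm4sf1 had the smallest p-values, with log2 fold changes of 1.09 and 0.69 (adjusted p 0.319 and 0.338).

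Machinery that motile and primary cilia share was steadier, at higher counts (a median total count of 782 per gene, beside 248 for the members). Of the genes for intraflagellar transport and the BBSome, which carry cargo along any cilium, 45 of 46 were tested, none passed the test and 35 were positive, with a median log2 fold change of 0.083. Their sum stayed between 198.9 and 223.2 CPM, a range of 1.12-fold. The libraries labelled TAAR5-KO stood at 214.6 to 223.2 CPM and those labelled TAAR5-WT at 198.9 to 214.2 CPM, so these sums did not overlap between the labels. No test over the sum was made. Wdr19, a subunit of the retrograde train, had a log2 fold change of 0.34 (adjusted p 0.150) and Dync2i2, of its motor, -0.55 (adjusted p 0.270). Regulators of multiciliogenesis gave 26 of 30 tested with none past the test, 14 positive and 12 negative, and Rfx7 (0.22) and Notch1 (-0.28) had the smallest p-values, with adjusted p of 0.320 and 0.380.

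Choroid plexus genes moved much further between libraries, and some of that movement ran beside the members. All 18 genes of this list were tested and none passed the test, with 17 negative. They summed to 5.68, 6.70, 6.29, 553.7, 220.0 and 11.8 CPM from NK1 to NK6. In the wild-type group the sums were 133.9, 339.6, 230.2, 284.7, 187.3 and 7.01 CPM from NK7 to NK12. Ttr, its most abundant gene, ran from 0.468 CPM in NK2 to 427.4 CPM in NK4, and Folr1 had 0 counts in NK1, NK2 and NK3. NK6 combined a choroid plexus sum of 11.8 CPM with an axonemal sum of 84.2 CPM, and NK7 combined 133.9 CPM with 60.9 CPM. The list's smallest p-values were those of Slc29a4 (log2 fold change -0.48, adjusted p 0.726) and Trpv4 (-0.71, adjusted p 0.737). With 1 library left out at a time, Slc29a4 ran from -1.01 (without NK4) to -0.30 (without NK6) and Trpv4 from -1.65 (without NK4) to -0.39 (without NK10). The part of choroid plexus tissue in the levels of the members cannot be told apart from that of ependyma in such libraries.

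**Figure D4:**
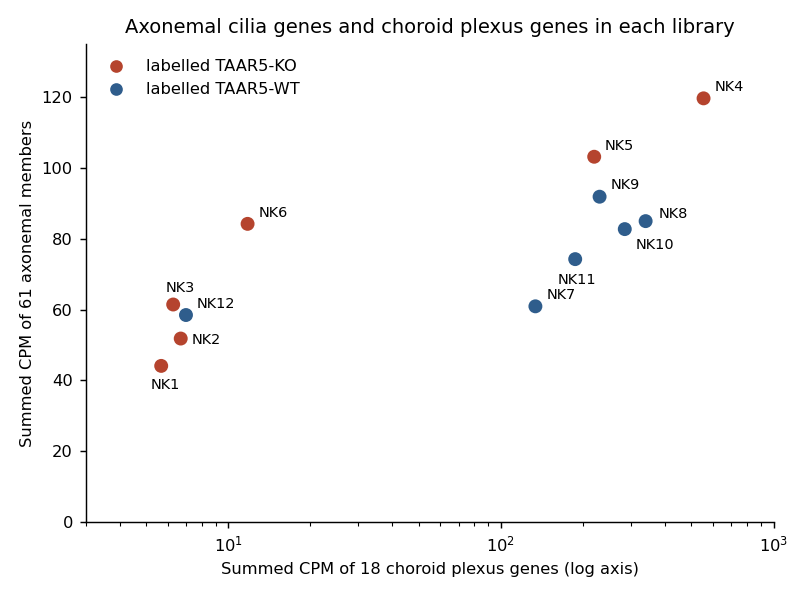
Summed CPM of the 61 axonemal members (y axis) against summed CPM of 18 choroid plexus genes (x axis, log scale) in each of the 12 libraries, coloured by label. NK4 and NK5 are at the upper right and NK1, NK2, NK3 and NK12 at the lower left, while NK6 has a low choroid plexus sum with 84.2 CPM of axonemal members.

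Adding the log2 choroid plexus sum of each library to the edgeR model, a fit chosen after the data were seen, raised the number of called members from 1 to 5, all higher under the knockout label, beside 1.81% of all features. These were Cfap53 (log2 fold change 1.32, adjusted p 0.0204), Cfap206 (0.86, adjusted p 0.0303), Hydin (0.73, adjusted p 0.0303), Cfap251 (0.82, adjusted p 0.0362) and Cfap44 (0.78, adjusted p 0.0440). In that model 26 members (34.7%) had an unadjusted p under 0.05, 23 of them higher, beside 13.2% of all features, and the median log2 fold change of the members was 0.34. By the quasi-likelihood test of the same model 2 members were called, Hydin and Cfap53 (adjusted p 0.0871 and 0.0937), beside 0.594% of all features. Leaving out 1 library at a time left between 1 member called (without NK12) and 10 (without NK9) by the likelihood ratio test. Members with an unadjusted p under 0.05 then numbered 14 (without NK6) to 31 (without NK1), and their median ran from 0.26 to 0.41 in the same fits. The choroid plexus sum was itself uneven between labels, low in NK1, NK2, NK3 and NK6 (5.68 to 11.8 CPM) but only in NK12 (7.01 CPM) under the wild-type label. Label and sum are thus partly confounded in that model. With the share of ribosomal RNA in its place, 1 member was called and the median was 0.085.

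Genes of astrocytes and of neuroblasts of the subventricular zone were read beside the members. In this bulk tissue, astrocytes of the ventricular wall cannot be told apart from those of the rest of the striatum. Of the 17 astrocyte genes, 16 were negative and 11 (64.7%) had an unadjusted p under 0.05, beside 11.4% of all features. Of these, 2 passed the likelihood ratio test and were lower under the knockout label, Acsbg1, an acyl-CoA synthetase (log2 fold change -0.45, adjusted p 0.0122), and Gja1, the gap junction protein connexin (-0.42, adjusted p 0.0626, and 0.157 by the quasi-likelihood test). The summed astrocyte level was 1178 to 1356 CPM and 1272 to 1509 CPM under the knockout and wild-type labels, lowest in NK4. The 14 neuroblast genes summed to 33.1 to 43.6 CPM with none past the test, 9 positive and 5 negative, and Dlx6os1 had a log2 fold change of 0.29 with an adjusted p of 0.358.

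Among the 75 members, 27 reached 0.25 CPM in all 12 libraries, none reached it in the libraries of only 1 label, and 33 had at least 1 library with 3 counts or fewer. Just inside the limit, Cfap157 and Rsph3a reached it in 3 libraries, with 53 and 35 counts in all. Outside it, Cfap58 and Cfap73 reached it in 1 library, with 15 and 18 counts in all, and Rsph14, Rsph6a, Cfap107, Cfap97d1, Dnah2os and Cfap141 in none, with 0 to 19 counts. Exons of 35 members overlapped another annotated feature, mostly on the opposite strand, among them Cfap119 (25.6% shared with Phkg2) and Dnah3 (10.5% shared with Lyrm1). Transcripts of Cfap410 and Cfap90 matched those of Pfkl (3909 bases) and Adcy2 (1406 bases) at 100% identity. The exons of these pairs do not overlap in the annotation of the counts. Whether the matches are separate copies or the same stretch of the genome was not tested, so read assignment of Cfap410 and Cfap90 is uncertain.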

How the data were processed

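RNA of the striatum was depleted of ribosomal RNA and made into directional libraries. Per the labels and the submitters' processing notes, the authors used cutadapt 4.1 for trimming, FastQC for quality, STAR 2.7.11b for alignment (GRCm39) and featureCounts 2.0.6 for counting. The deposited values are raw counts of each gene and library, neither normalized nor pooled, beside a merged exon length per gene. How featureCounts treated strand and multiply mapped reads is not given in the sources used here. Counts in 12 other columns were left out.

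Features with a CPM of at least 0.25 on total counts in at least 3 of 12 libraries were kept, where the study used 0.5, because the members were defined at 0.25. Labels were compared with glmFit and glmLRT of edgeR 4.0.16 (R 4.3.3) with TMM factors, estimateDisp and no covariate, with a call where the p adjusted by Benjamini and Hochberg over all features was under 0.1. Quasi-likelihood results of edgeR stand beside these, with DESeq2 1.42.0 as an alternative. TMM library sizes ran from 8376600 to 43389000, and 3 counts equal 0.0691 to 0.358 CPM, the level that a count of 0 still allows, for counting error only. No test over the list of members was made. Overlaps came from the exon positions deposited with the counts. Copies and ribosomal RNA features came from GENCODE M39 on GRCm39, and promoters from RefSeq on GRCm38.p6.

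The members and the gene lists were chosen with earlier results of these data known. Named genes were the members past the threshold, those given by name in the rule, the 2 highest per kb and the 1 with the smallest p in each role, the 3 largest log2 fold changes in each direction, and the 2 genes with the smallest p of each other list, of which 1 is not reported here. On data simulated from these libraries with 200 of 16174 genes changed, the likelihood ratio test made 176 calls, of which 19.9% were false, and the quasi-likelihood test 147, of which 11.6% were false.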

Additional observations from a re-analysis of the deposited data

Results flagged for a closer look

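Within one label of 6 libraries, a library was singled out where its gap to the next library, as a share of the range over that label, exceeded the 95% limit of Dixon's test for 6 libraries. This held 6 times among 128 sets of 6 libraries, and chance gives about 1 in 20. NK4 stood apart above the other libraries labelled TAAR5-KO for the summed nexin-dynein regulatory complex (7.87 CPM, next 4.21) and for its member Drc7 (4.34 CPM, next 1.22). It also did so for Foxj1 and Rfx3 summed (22.8 CPM, next 18.3) and for Trpv4, a channel of the choroid plexus list (1.43 CPM, next 0.547). Under the wild-type label, NK9 stood apart for Cfap251 (1.41 CPM, next 0.955) and NK11 for Foxj1 (2.60 CPM, next 1.97). The cause was not tested.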

How the results depend on the processing

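No paired analysis was possible because the columns carry no animal number that is shared between the labels. Cfap251 was the 1 member called, and 0 members were called by the quasi-likelihood test, with library size as the only scaling, with no filter and with ribosomal RNA features removed (its adjusted p ran from 0.0259 to 0.727 over the other tests, scalings and filters). Leaving out 1 library at a time gave 0 to 1 members called, and 8 of 12 such fits called Cfap251. With 2 covariates chosen after seeing the data, 5 members were called with the choroid plexus sum and 1 with the ribosomal RNA share. The 241 features called (142 higher, 99 lower) became 51 by the quasi-likelihood test, 93 with no filter, 122 with ribosomal RNA features removed, 103 at an adjusted p under 0.05 and 130 (58 higher, 72 lower) with the ribosomal RNA share as a covariate. They became 12, all lower, with library size as the only scaling, and 293 (144 higher, 149 lower) with the choroid plexus sum. Left-out libraries gave 73 (without NK11) to 425 (without NK4), with 114 without NK1, 119 without NK2, 146 without NK3, 116 without NK7 and 155 without NK12. The median of the members ran from -0.038 to 0.25 over the left-out libraries and was -0.11 with library size alone, where the median of all features moved by -0.48, so the members lay above that median on both scales.

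With library size as the only scaling, log2 fold changes turned negative for Rfx3 (-0.48), Cfap90 (-0.46), Cfap300 (-0.37), Rfx7 (-0.25), Drc1 (-0.20), Dlx6os1 (-0.20), Cfap69 (-0.13), Wdr19 (-0.11), Rsph4a (-0.082), Lrguk (-0.069) and Cfap43 (-0.048). Dnai4 turned positive with DESeq2 (0.000433), RLE factors (0.0018), the quasi-likelihood test (0.0057) and the length trend removed (0.019), and Cfap68 with the length trend removed (0.00206). Over the left-out libraries, signs turned for Tekt1 (-0.31 to 0.70), Foxj1 (-0.062 to 0.44), Cfap68 (-0.12 to 0.031), Cfap90 (-0.00237 to 0.26), Cfap300 (-0.064 to 0.27), Dnai4 (-0.12 to 0.16), Dnai1 (-0.25 to 0.063), Cfap44 (-0.00428 to 0.48), Cfap43 (-0.037 to 0.31), Dnah6 (-0.23 to 0.33), Dnah12 (-0.025 to 0.57), Drc7 (-1.05 to 0.061), Dnah9 (-0.18 to 0.36), Rsph1 (-0.44 to 0.084) and Rsph4a (-0.20 to 0.20). None of these was called in the fits where its sign turned, while Wdr19 was called with filterByExpr (adjusted p 0.0962) and Cfap44 with the choroid plexus sum as a covariate, and the cause was not tested. Gja1 lost its call in 11 of 21 other fits, with an adjusted p up to 0.727. Depth limits all of this, since 33 members had a library with 3 counts or fewer.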
